A study of Mus musculus with 9 samples.

Results

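The p200 (Ifi200) and schlafen genes Ifi202b, Ifi203, Mndal, Slfn2, Slfn8 and Slfn9 were followed in mouse brain tumor stem cells (BTSC) in which Gpd1 had been knocked out (KO). They were taken by symbol and had been chosen by their low values in KO against control, so the difference between KO and control is described here for these genes without a test. Of these 6 genes, 5 had a row among the 21899 genes of the table, and 4 reached the mean of 10 over all libraries that a gene needed to be among the 15827 tested. Slfn2 had no row and was not analysed here. The study sequenced poly(A) RNA from 9 libraries in 3 groups of 3. The sgRNA1 KO and sgRNA2 KO groups were BTSC transfected with a lentiCRISPR vector that carries Cas9 and 1 of a pair of guides against Gpd1, the cytosolic glycerol-3-phosphate dehydrogenase. They were selected with puromycin and expanded from picked colonies that each grew from 1 cell, so a library may stand for 1 clone, although the labels do not tie libraries to colonies. The control group was BTSC. Whether these cells were selected or picked as colonies, the mouse strain, and whether replicates were separate cultures are not given. The p-values thus measure only the spread between these libraries. The part of selection and of colony picking in the differences between KO and control was not tested.

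Values are the authors' normalized read counts, scaled per library, which summed to between 39781901 and 42975283 per library. Gpd1 itself stood at 12.8%, 5.21% and 82.6% of the control mean in sgRNA1 KO replicates 1, 2 and 3, and at 41.8%, 41.8% and 26.9% in sgRNA2 KO. The table holds the same Gpd1 value, 10812, for sgRNA2 KO replicates 1 and 2. Over the whole table, replicate 3 of sgRNA1 KO and replicate 1 of sgRNA2 KO lay nearest the controls (correlation across genes from 0.962 to 0.972), and the other KO libraries lay farther away (from 0.909 to 0.945). All 12 neural stem cell markers had rows, with summed counts of 346644 to 456913 in KO and 464989 to 501187 in control. Prom1 was low, at 3 to 31 in KO and 7 to 15 in control, and Sox2, for example, was at 11565 to 23374 in KO and 7105 to 8756 in control.

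The p200 proteins carry a DNA-binding HIN domain, mostly behind a pyrin domain, and are known as interferon-induced sensors and regulators of responses to DNA. Many schlafen genes are interferon-induced too, and their long forms encode proteins with a helicase-like part, some of which, in human, act on RNA. Both families lie in clusters of similar copies whose content is known to differ between inbred mouse strains, and type I interferon switches genes of this kind on through the interferon-stimulated response element (ISRE).

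The promoters of the members with values are shown because they share that element in part and show how alike the copies are. They come from RefSeq (GRCm38.p6, the mm10 assembly), reach from 250 bases before to 50 after the start, and read 5′ to 3′ on the strand of the gene. All 6 symbols matched, with more than 1 start for Ifi203, Mndal and Slfn8, and 1 window per gene is printed. Capitals mark the ISRE core GAAANNGAAA in either direction or, in Ifi202b, the gamma-activated site TTCNNNGAA, which reads the same on both strands.
Ifi202b, chr1:173982795-173983094, minus strand: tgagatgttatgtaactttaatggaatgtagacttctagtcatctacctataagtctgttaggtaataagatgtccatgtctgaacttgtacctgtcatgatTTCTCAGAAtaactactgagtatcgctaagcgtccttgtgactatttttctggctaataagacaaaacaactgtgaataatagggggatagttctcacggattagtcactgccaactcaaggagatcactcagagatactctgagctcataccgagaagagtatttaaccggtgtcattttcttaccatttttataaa
Ifi203, chr1:173942443-173942742, minus strand: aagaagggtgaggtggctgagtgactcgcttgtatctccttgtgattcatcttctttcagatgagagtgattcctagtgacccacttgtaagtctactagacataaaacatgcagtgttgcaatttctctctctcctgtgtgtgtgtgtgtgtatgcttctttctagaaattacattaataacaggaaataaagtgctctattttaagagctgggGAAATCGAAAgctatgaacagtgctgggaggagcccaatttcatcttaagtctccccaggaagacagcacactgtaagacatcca
Mndal, chr1:173880138-173880437, minus strand: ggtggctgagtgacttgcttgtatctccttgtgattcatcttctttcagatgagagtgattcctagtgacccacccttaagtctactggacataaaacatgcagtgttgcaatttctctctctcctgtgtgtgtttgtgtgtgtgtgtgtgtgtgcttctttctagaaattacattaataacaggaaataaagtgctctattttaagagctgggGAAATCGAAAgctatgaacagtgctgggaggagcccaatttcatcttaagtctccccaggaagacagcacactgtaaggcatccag
Slfn8, chr11:83020761-83021060, minus strand: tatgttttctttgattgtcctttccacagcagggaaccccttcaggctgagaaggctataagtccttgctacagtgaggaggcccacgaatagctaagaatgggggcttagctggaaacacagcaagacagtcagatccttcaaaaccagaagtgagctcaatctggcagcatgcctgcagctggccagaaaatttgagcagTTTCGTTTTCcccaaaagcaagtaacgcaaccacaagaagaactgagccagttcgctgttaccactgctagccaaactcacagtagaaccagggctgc
Slfn9, chr11:82991781-82992080, minus strand: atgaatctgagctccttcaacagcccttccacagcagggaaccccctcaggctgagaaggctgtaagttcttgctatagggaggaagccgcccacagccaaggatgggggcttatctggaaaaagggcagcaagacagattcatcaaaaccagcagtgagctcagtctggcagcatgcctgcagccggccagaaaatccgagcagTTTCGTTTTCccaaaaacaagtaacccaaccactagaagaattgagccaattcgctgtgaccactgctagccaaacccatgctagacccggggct

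An ISRE core was present in 1131 of 32851 RefSeq windows of the same length (3.44%), and a gamma-activated site in 2726 (8.3%). The window of Ifi203 held GAAATCGAAA at position -35 and that of Mndal held the same letters at -36, within stretches that were identical at 282 of 289 aligned bases (97.6%). Slfn8 held TTTCGTTTTC at -48 and Slfn9 held it at -45, and these windows were identical at 248 of 292 aligned bases (84.9%). Ifi202b had the gamma-activated letters TTCTCAGAA at -148 and no ISRE core. The other Ifi203 window and the Slfn2 window held neither set of letters, and the other windows of Mndal and Slfn8 held an ISRE core at -54 and -136. A match is a description of the letters and was not tested as a site of binding.

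In the p200 cluster, Ifi202b, Ifi203 and Mndal stood at 0 to 4 counts in every KO library of both guides. Ifi202b (ENSMUSG00000026535, chromosome 1, 173962568 to 173982744, minus strand) encodes a p200 protein without a pyrin domain that is known to bind DNA and to counter the sensor Aim2. Its normalized counts were 1, 3 and 1 in the sgRNA1 KO libraries and 1, 1 and 0 in the sgRNA2 KO libraries, against 106, 173 and 152 in control. No KO library came near the lowest control. The mean was 1.17 ± 0.983 in KO (SD, n = 6) and 144 ± 34.3 in control (SD, n = 3), so KO kept 0.812% of the control level (95% Clopper-Pearson interval 0.325% to 1.69%, for counting error only). On the log2(value + 1) scale the difference was -6.15 (SE 0.40), the second lowest of all genes tested. In bulk RNA, fewer cells that express a gene and less RNA per cell cannot be told apart.

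Ifi203 (ENSMUSG00000039997, chromosome 1, 173920407 to 173942672, minus strand) encodes a nuclear p200 protein. It had counts of 4, 2 and 0 in the sgRNA1 KO libraries and 0, 0 and 0 in the sgRNA2 KO libraries, against 76, 80 and 70 in control. The controls were tight around 75.3 ± 5.03 (SD, n = 3), while KO averaged 1.0 ± 1.67 (SD, n = 6) with 4 libraries at 0. KO thus kept 1.33% of control (interval 0.482% to 2.93%), with a log2 difference of -5.60 (SE 0.57). With every library at 0, sgRNA2 KO was at least 25.1-fold lower than control when 3 counts are taken as the floor of each library.

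Mndal (ENSMUSG00000090272, chromosome 1, 173849126 to 173942491, minus strand) encodes a p200 protein related to the human myeloid nuclear differentiation antigen. It had 2, 0 and 0 counts in the sgRNA1 KO libraries and 0, 0 and 0 in the sgRNA2 KO libraries, against 8, 14 and 11 in control, where it was low too. Its mean of 3.89 over all libraries kept it from the test. KO kept 3.03% of control, but on so few counts the interval ran from 0.352% to 11.8%, and sgRNA2 KO was at least 3.67-fold lower. Per kilobase of exon, the control levels were 84.7 counts for Ifi202b, 11.2 for Ifi203 and 3.03 for Mndal, so Ifi202b was the most abundant of these genes per length in control.

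In the schlafen cluster, Slfn8 was near absence in KO and Slfn9 was not, although both were grouped under that description. Slfn8 (ENSMUSG00000035208, chromosome 11, 83002158 to 83020810, minus strand), a long schlafen with the helicase-like part, had counts of 6, 0 and 13 in the sgRNA1 KO libraries and 1, 1 and 4 in the sgRNA2 KO libraries, against 173, 188 and 188 in control. It averaged 4.17 ± 4.88 in KO (SD, n = 6) and 183 ± 8.66 in control (SD, n = 3). KO kept 2.28% of the control level (interval 1.46% to 3.40%), and the log2 difference was -5.70 (SE 0.73). The highest KO value, in sgRNA1 KO replicate 3, was 7.10% of the control mean.

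Slfn9 (ENSMUSG00000069793, chromosome 11, 82978390 to 82991830, minus strand), another long schlafen, was the most abundant member per length, at 109 counts per kilobase in KO and 459 in control. Its counts were 163, 184 and 1367 in the sgRNA1 KO libraries and 1190, 398 and 616 in the sgRNA2 KO libraries, against 2636, 2819 and 2754 in control. Every KO library lay below every control, but the KO libraries spread widely, at 653 ± 515 (SD, n = 6) beside 2736 ± 92.8 in control (SD, n = 3). Relative to the control mean, sgRNA1 KO replicates 1, 2 and 3 kept 5.96%, 6.72% and 50%, and sgRNA2 KO replicates 1, 2 and 3 kept 43.5%, 14.5% and 22.5%. The highest of these values belonged to sgRNA1 KO replicate 3 and sgRNA2 KO replicate 1, which are also the KO libraries nearest the controls across all genes. The log2 difference was -2.51 (SE 0.66), which ranked 187 from the lowest, against ranks 2, 4 and 5 for Ifi202b, Slfn8 and Ifi203. Without those KO libraries nearest the controls it was -3.22.

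**Figure D1:**
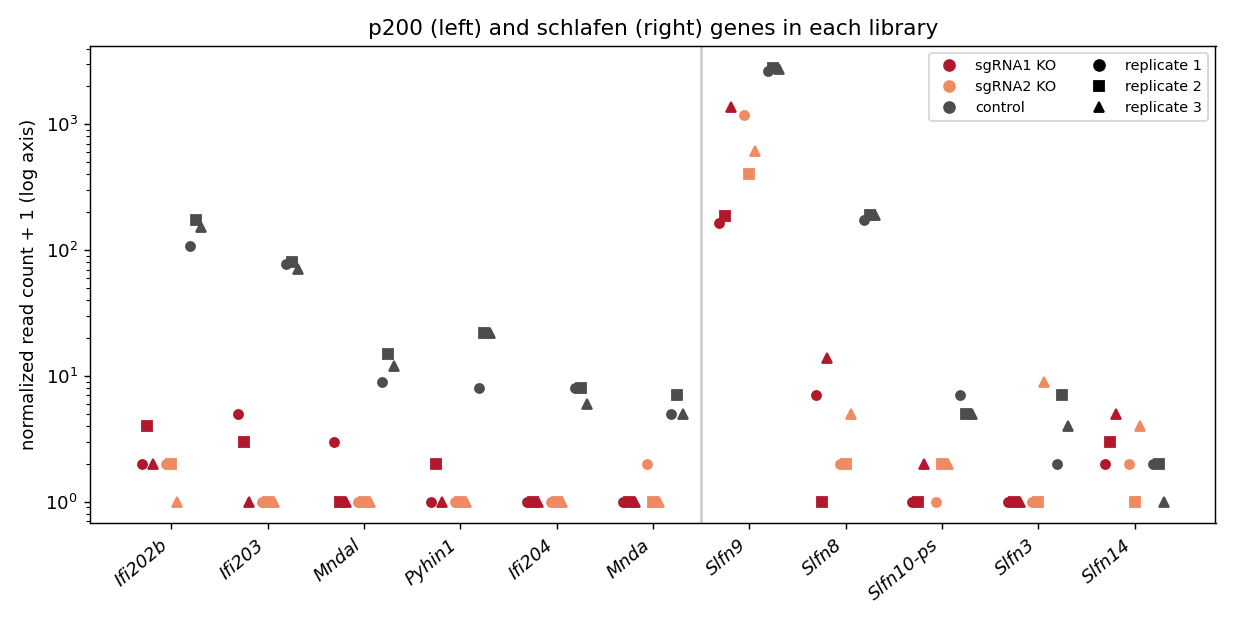
Normalized read counts plus 1 (log axis) of each p200 gene (left) and schlafen gene (right) in the table, 1 point per library, with colours for sgRNA1 KO, sgRNA2 KO and control and shapes for replicates. Ifi202b, Ifi203, Mndal and Slfn8 lie at 0 to 13 counts in the 6 KO libraries, and Slfn9 runs from 163 to 1367 in KO, below 2636 to 2819 in control.

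The 3 tested members with values near 0 passed the mean of 10 through their controls, and all 5 members with a row had every KO library below every control. Among all genes tested, 3763 of 15827 (23.8%) had that order, and in limma 6227 (39.3%) differed between KO and control, 3201 lower (20.2%) and 3026 higher (19.1%). Without control replicate 1, 2 or 3 the count of 6227 became 3904, 2777 or 3006. The members were selected for this contrast, so nothing is read from their share.

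**Figure D2:**
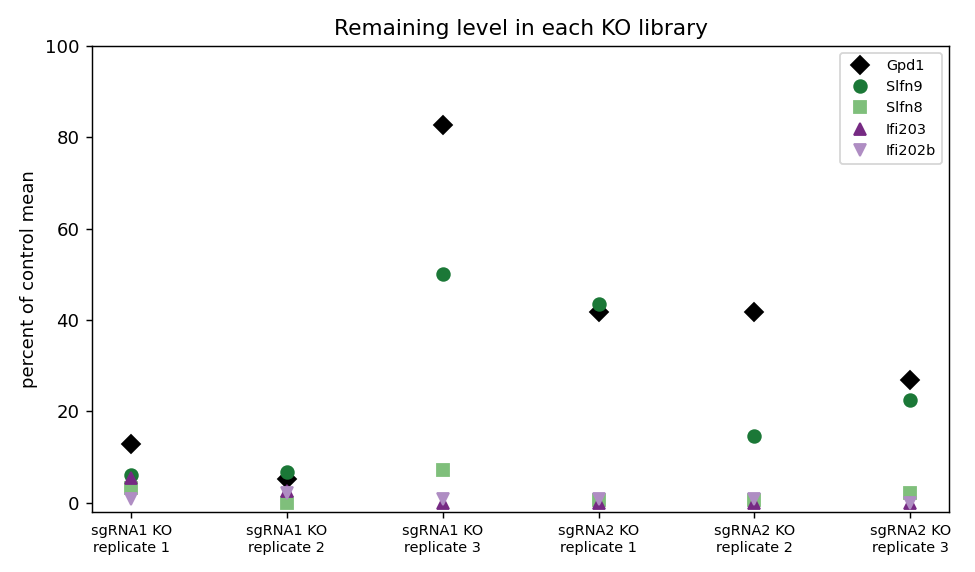
Percent of the control mean left in each KO library (x axis), for Gpd1, Slfn9, Slfn8, Ifi203 and Ifi202b. Slfn9 spreads from 5.96% to 50% and Gpd1 from 5.21% to 82.6%, while Ifi202b, Ifi203 and Slfn8 stay between 0.0% and 7.10%.

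The plot of remaining levels sets the members beside the targeted gene. In sgRNA1 KO replicate 3, where Gpd1 stood at 82.6% of control, Ifi203 was at 0.0%, Ifi202b at 0.696% and Slfn8 at 7.10%. In sgRNA1 KO replicate 2, where Gpd1 stood at 5.21%, Ifi203 was at 2.65%, Ifi202b at 2.09% and Slfn8 at 0.0%. Ifi203, Ifi202b and Slfn8 were chosen for low values in KO, so their low levels at both ends of the range of Gpd1 RNA follow from that choice. Slfn9 was higher in the first of these libraries (50%) than in the second (6.72%). In sgRNA2 KO replicates 1 and 2, which had the same Gpd1 value (41.8%), Slfn9 was at 43.5% and 14.5%. A relation of these levels to Gpd1 was not tested.

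The members were also set side by side between the guides. In limma, no gene of 15827 passed between sgRNA1 KO and sgRNA2 KO (0.0%), with 474 at an unadjusted p under 0.05 and a smallest adjusted p of 0.762. The members were chosen by the same KO values, so their differences between guides are bounded by that choice and are described without a test. On the log2 scale, sgRNA1 KO minus sgRNA2 KO, Ifi202b differed by 0.67 (SE 0.43) and Ifi203 by 1.30 (SE 0.54), the second resting on the 4 and 2 counts of sgRNA1 KO replicates 1 and 2. Slfn8 differed by 0.76 (SE 0.85), but by -0.04 without sgRNA1 KO replicate 3, its highest KO library. Slfn9, which kept more counts in KO, differed by -0.94 (SE 0.74). Over all genes, 182 passed between the guides without sgRNA1 KO replicate 3, and 1 gene passed without sgRNA1 KO replicate 1 or without sgRNA2 KO replicate 1.

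Relatives in both clusters were too low for the filtered test. In the p200 family, 3 of 20 symbols looked for had rows: Pyhin1, Ifi204 and Mnda, which GENCODE M21 names Ifi209, Ifi204 and Ifi211. Pyhin1 (chromosome 1, 173630917 to 173647928) had 0, 1 and 0 counts in the sgRNA1 KO libraries and 0, 0 and 0 in the sgRNA2 KO libraries, against 7, 21 and 21 in control. Ifi204, known as a cofactor of DNA sensing, was at 0 in all 6 KO libraries, against 7, 7 and 5 in control, which is at least 2.11-fold lower. Mnda had 1 count in sgRNA2 KO replicate 1 and 0 in the other KO libraries, against 4, 6 and 4 in control. With no filter all 3 fell in limma, with log2 differences of -3.81 (SE 0.43, adjusted p = 0.000543), -2.86 (SE 0.31, adjusted p = 0.000404) and -2.32 (SE 0.37, adjusted p = 0.00222), values that depend on the added 1. They passed in each of the 9 fits with 1 library left out. Their rows, however, reached the lowest row sum of the table, 10, only through the controls. These limma p-values are thus no support for a fall.

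In the schlafen family, 3 of 8 symbols of relatives had rows. The pseudogene Slfn10-ps had 0, 0 and 1 counts in the sgRNA1 KO libraries and 0, 1 and 1 in the sgRNA2 KO libraries, against 6, 4 and 4 in control, and fell with no filter (log2 -1.98, SE 0.41, limma adjusted p = 0.00643). Slfn3 had 8 counts in sgRNA2 KO replicate 3 and 0 in the other KO libraries, against 1, 6 and 3 in control, so the groups overlapped (log2 -1.41, limma adjusted p = 0.179). Slfn3 passed only in the fit without that library (log2 -1.94, limma adjusted p = 0.00966). That fit leaves 0 in every KO library, so nothing is read from it. Slfn3 did not pass with any other library left out. Slfn14 was at 0 to 4 counts in KO and 0 to 1 in control, with overlap (log2 0.65, limma adjusted p = 0.381). With no filter, 3249 of 21899 genes (14.8%) were called lower, and 4051 (18.5%) had all KO libraries below all controls. No row of the table sums to under 10, and these relatives reached that sum through their controls (Slfn14 apart). Neither their count nor their limma p-values are thus support for a common direction.

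Copies in these clusters share sequence, so reads of one can be counted for another or left out. Of the 25-base words in the annotated transcripts of each gene, other genes also held 3.1% for Ifi202b, 26.0% for Ifi203, 33.6% for Mndal, 34.4% for Slfn8 and 32.5% for Slfn9. For words of 100 bases these shares were 0.0%, 2.8%, 6.4%, 3.4% and 3.7% in the same order of genes. Among these members Ifi202b, at 0.812% of control in KO, thus shared least with other genes of this annotation. Copies that the annotation lacks are not counted in these shares, and the strain of these cells is not given. Mnda (Ifi211) shared 81.5% of its 25-base words and 56.9% of its 100-base words, most with Ifi205, so its counts are uncertain. Exons of Mndal and Ifi203 overlap on the same strand by 37 bases, 1.0% of the exon bases of Mndal, and those of Mndal and Gm38050 by 118 bases. How shared reads were counted is not given in the sources used here.

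Within 500 kb outside the outermost members of each cluster, Slfn2 included, 21 genes of neither family had rows and 17 were tested. Of these 3 rose and 2 fell, beside 39.3% called over all genes, and their median log2 difference was 0.14, beside -0.01 over all genes tested. The nearest of them to the left of Mndal was Cadm3, an adhesion molecule gene 481.4 kb from it, whose span overlaps that of the p200 relative Aim2. It had 259, 382 and 49 counts in the sgRNA1 KO libraries and 32, 31 and 29 in the sgRNA2 KO libraries, against 252, 238 and 223 in control. Its groups overlapped through sgRNA1 KO replicates 1 and 2 (log2 -1.70, SE 0.85, limma adjusted p = 0.133).

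Around the schlafen cluster 15 genes were tested, of which 3 rose and 1 fell. Cct6b, which encodes a chaperonin subunit and lies 214.1 kb to the left of Slfn9, averaged 32.3 ± 6.77 in KO (SD, n = 6) and 8.33 ± 0.577 in control (SD, n = 3), and rose by 1.81 on the log2 scale (SE 0.25, limma adjusted p = 0.00119). To the right, Rasl10b rose by 1.63 (SE 0.28, limma adjusted p = 0.00309) and 1700020L24Rik by 1.96 (SE 0.48, limma adjusted p = 0.0119), both without overlap. Cct6b and 1700020L24Rik (control means 8.33 and 8.67) passed the mean of 10 only through the KO libraries. Their limma p-values are thus no support for a rise. The nearest to the left of Slfn9, Nle1, known for its part in ribosome assembly, fell by 0.93 (SE 0.33, limma adjusted p = 0.0477), but sgRNA2 KO replicate 3 at 867 exceeded the controls at 702 to 844, and the call was lost in 11 of 17 alternatives. The nearest to the right of Slfn2, AA465934, had 82 to 121 counts in KO and 88 to 109 in control (log2 -0.09, limma adjusted p = 0.730). Without sgRNA2 KO replicate 3 the calls among all these neighbours were 8 rather than 5. In that library the median log2 ratio to control over 1233 genes of chromosome 11 was 0.47, against -0.13 to 0.01 in the other KO libraries, and its part in these results was not tested.

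**Figure D3:**
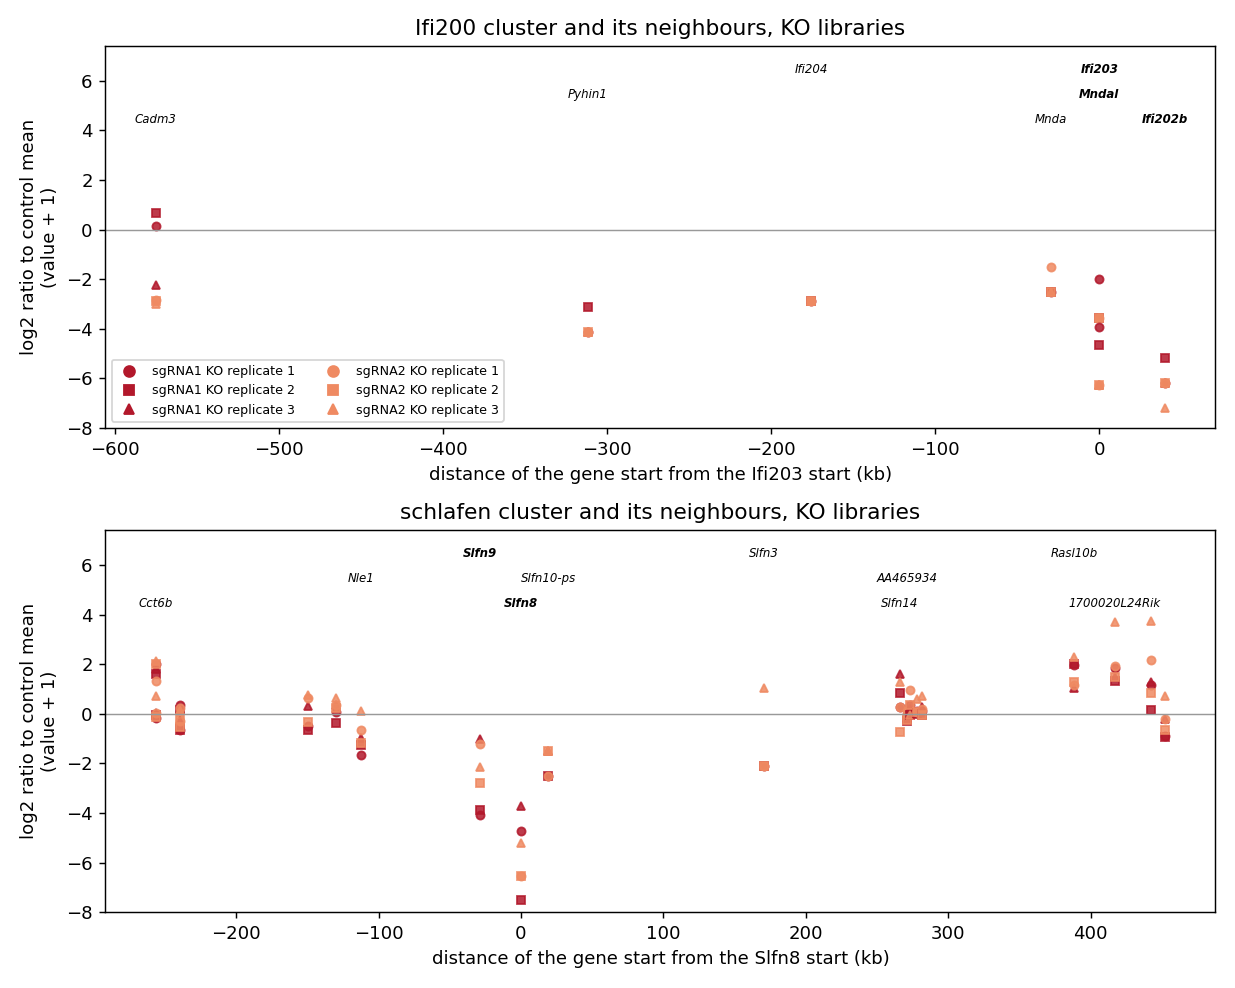
Log2 ratio of each KO library to the control mean (value + 1) against distance of the gene start in kb from that of Ifi203 (top) and Slfn8 (bottom), for family genes in the table and tested neighbours left of the p200 cluster and on both sides of the schlafen cluster. Family genes, members in bold, and named neighbours are labelled. The p200 genes lie below 0 in all 6 KO libraries, as do Slfn9, Slfn8 and Slfn10-ps, while Rasl10b and Cct6b lie above 0.

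Genes whose values followed the members most closely over the 9 libraries were found by the mean absolute difference of log2(value + 1) after centring on the controls. For Slfn9 these were Angpt2 (0.16), Fam111a (0.16) and Gins2 (0.17), and all 3 were found again with a pseudocount of 5. Angpt2, for example, had 118, 88 and 630 counts in the sgRNA1 KO libraries and 539, 151 and 298 in the sgRNA2 KO libraries, against 1076, 1403 and 1286 in control. For both genes sgRNA1 KO replicate 3 was the highest KO library and sgRNA2 KO replicate 1 came next. For Ifi202b the closest were Fam19a2 (0.47), Ifi203 (0.53) and Fcgr4 (0.66), and for Ifi203 they were Ptprn (0.49), Col6a1 (0.51) and Ifi202b (0.53). Mndal was closest to Vwa3b (0.31), S100a11 (0.37) and Adamts8 (0.38), and Slfn8 to Ociad2 (0.71), Plaur (0.76) and Itpripl2 (0.83). For the 4 members other than Slfn9 at most 1 of these genes was found again with the other pseudocount.

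Interferon genes outside both families were called about as often as all genes tested, of which 39.3% were called (20.2% lower and 19.1% higher), so their counts are a description and not a result about these lists. They were 8 of 20 in signalling, 16 of 42 among targets and 6 of 16 in nucleic acid sensing. Of 28 interferon signalling genes, 20 were tested, of which 1 rose and 7 fell, with a median log2 difference of -0.06 (range -1.88 to 1.02). Socs3, a feedback inhibitor of cytokine signalling, averaged 240 ± 91.9 in KO (SD, n = 6) and 833 ± 71.2 in control (SD, n = 3), and fell by 1.88 (SE 0.30, limma adjusted p = 0.00238). Ifnar2, a subunit of the type I interferon receptor, averaged 703 ± 67.6 in KO and 1088 ± 43.3 in control, and fell by 0.63 (SE 0.12, limma adjusted p = 0.00432). Without any 1 of the controls the list had 4 calls, against 8 with all libraries.

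Of 58 interferon target genes outside both families, 42 were tested, of which 7 rose and 9 fell, with a median of -0.19 (range -1.95 to 2.31). Mx2, an antiviral GTPase gene annotated as a polymorphic pseudogene, had 245, 267 and 205 counts in the sgRNA1 KO libraries and 171, 273 and 172 in the sgRNA2 KO libraries, against 56, 38 and 38 in control. All KO libraries lay above all controls, and Mx2 rose by 2.31 (SE 0.23, limma adjusted p = 0.000432). Rsad2, which encodes the antiviral protein viperin, averaged 310 ± 96.2 in KO and 85.0 ± 8.89 in control (SD, n = 6 and 3), and rose by 1.79 (SE 0.28, limma adjusted p = 0.00192). Among those that fell were Samhd1, a dNTP hydrolase gene (-1.22, SE 0.25, limma adjusted p = 0.00614), and Gbp7, a guanylate-binding protein gene (-0.64, SE 0.12, limma adjusted p = 0.00432). Without control replicate 1, 2 or 3 the 16 calls became 9, 6 or 8.

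Of 27 nucleic acid sensing genes, 16 were tested, of which 3 rose and 3 fell, with a median of -0.21 (range -2.92 to 1.53). Il18, an inflammasome-processed cytokine gene, averaged 1519 ± 354 in KO (SD, n = 6) and 518 ± 65.8 in control (SD, n = 3), and rose by 1.53 (SE 0.21, limma adjusted p = 0.00118). Dhx58, which encodes the RNA sensor LGP2, averaged 12.8 ± 4.88 in KO and 46.0 ± 5.29 in control, and fell by 1.86 (SE 0.37, limma adjusted p = 0.00540). The adaptor gene Ticam1 rose by 0.56 (SE 0.16, limma adjusted p = 0.0211) and the adaptor gene Traf3 fell by 0.76 (SE 0.21, limma adjusted p = 0.0191). The call of Ticam1 was lost without any 1 control and that of Traf3 without control replicate 2 or 3, and the 6 calls of the list became 3, 2 or 2 without control replicate 1, 2 or 3. The DNA sensor Aim2, a p200 relative, had no row.

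**Figure D4:**
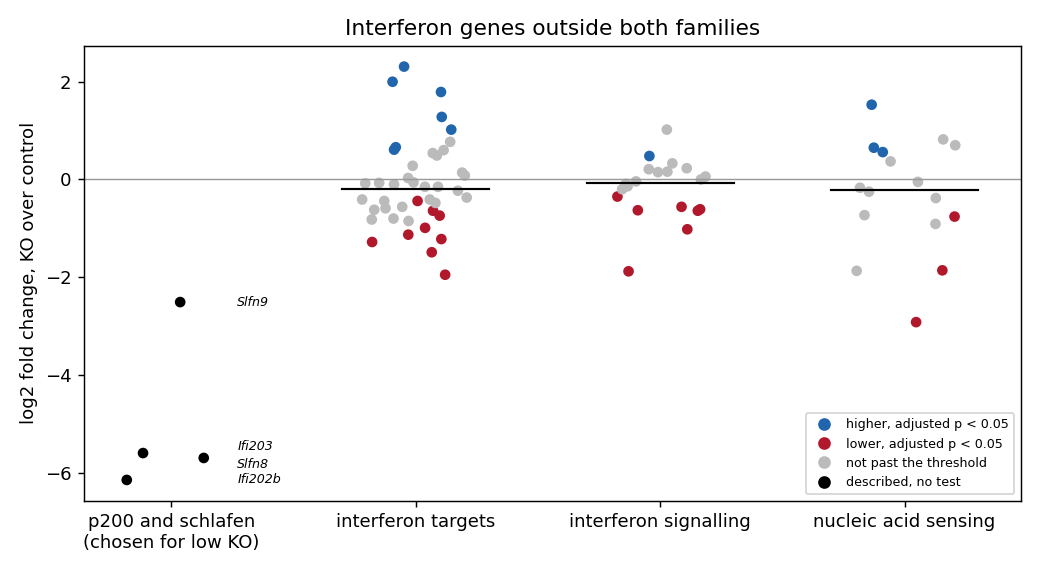
Log2 fold change of KO over control for each tested gene of the interferon lists (y axis), coloured by whether it passed limma at an adjusted p of 0.05, with the list median as a line and the 4 tested members in black at left. The members lie at -2.51 to -6.15, having been selected for low KO values, and the lists run on both sides of 0 with medians of -0.06 to -0.21.

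Markers of cell types that express p200 and schlafen genes were read beside these results. Over all genes tested, 39.3% were called (20.2% lower and 19.1% higher). With few markers tested per list, the counts of calls are a description and not a result about cell types. Of 18 microglia and macrophage markers 9 had rows and 4 were tested, 1 risen and 1 fallen (Cd68), and the sum of the 9 was 1458 to 2895 in KO and 831 to 911 in control. The defining genes Cx3cr1, Itgam, Tyrobp and Adgre1 had no row, Ptprc was at 0 to 4 in KO and 1 to 2 in control, and Csf1r at 0 to 5 in KO and 9 to 10 in control. Of 14 lymphocyte markers 4 had rows and both that were tested fell, Klrb1c (log2 -3.65, SE 0.53, limma adjusted p = 0.00161) and Lck (log2 -1.83, SE 0.27, limma adjusted p = 0.00164). The sum of the 4 was 22 to 46 in KO and 125 to 194 in control. Lck was the larger of these genes in KO (mean 17.2, Klrb1c 8.17) and Klrb1c in control (98.7, Lck 62.3). Cd3e, Cd3d, Cd8a and Ms4a1 had no row. Of 17 endothelial and fibroblast markers 12 had rows and 8 were tested, 1 risen (Pdgfra) and 2 fallen (Rgs5 and Kdr), with sums of 1271 to 5483 in KO and 800 to 939 in control, mostly Pdgfra. Of the 12 neural stem cell markers Pax6 and Sox2 rose and Vim and Nes fell. The calls of Cd68, Pdgfra and Kdr were each lost without control replicate 2 or 3, those of Cd68 and Kdr also without control replicate 1, and that of Kdr also without sgRNA1 KO replicate 1 or sgRNA2 KO replicate 2. Klrb1c and Rgs5 (KO means 8.17 and 2.67) passed the mean of 10 only through their controls, so their calls are no support for a fall. The part of other cells in the levels of the members was not tested.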

How the data were processed

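Poly(A) RNA of 9 BTSC libraries was grouped by the labels. Per the submitters' processing notes, the tools included STAR 2.4.1d, featureCounts and DESeq2, and the build was mm10; the annotation release and strand setting are not given in the sources used here. The deposited values are a score: read counts that the authors scaled per library and rounded, as far as the values show. Of the 21899 rows, 21823 (99.7%) matched GENCODE M21 by gene ID, which gave positions and exon lengths.

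Values were transformed as log2(value + 1), and genes averaging 10 or more across all 9 libraries entered limma 3.58.1 (R 4.3.3), two-sided, over the whole table, with a Benjamini-Hochberg adjusted p under 0.05 as the threshold. KO against control compared 6 with 3 libraries, and the guides were compared in a fit of 3 groups. Fold changes of low genes are understated by the added 1. The fits were also run on simulated data with known changes, drawn with the same spread in KO and control. In the real data the KO libraries differed more among themselves than the controls did, which that run does not cover. The members and gene lists were chosen with earlier results of these data known.

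Named were the members, their relatives in the table, Gpd1, up to 2 risen and 2 fallen genes per list by p, neighbours that passed or lay nearest, and the 3 genes most like each member. Some genes that this rule names are not reported here. Angpt2 is shown in full, and a few marker genes are given as examples, chosen after their values were seen. Intervals and floors cover counting error only. Alternatives were pseudocounts of 0.5 and 5, other filters, quantile and median-of-ratios scaling, a replicate block, each library left out, and a wider window for neighbours; a fit without both KO libraries nearest the controls and unfiltered fits with a library left out were added after the data were seen.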

Additional observations from a re-analysis of the deposited data

Results flagged for a closer look

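Among 38 genes of the families, lists and neighbourhoods, 5 had 1 KO library far from the other 5 by its gap relative to the range on the log2 scale. For independent values from a normal distribution, chance flags about 1 group in 20. Whether the KO libraries follow such a distribution was not tested. Mndal had 2 counts in sgRNA1 KO replicate 1 and 0 elsewhere in KO. Mnda had 1 count in sgRNA2 KO replicate 1, and Pyhin1 had 1 count in sgRNA1 KO replicate 2, with 0 in the other KO libraries. Slfn3 had 8 counts in sgRNA2 KO replicate 3 and 0 in the other KO libraries. In the same library 1700020L24Rik had 124 counts, against 23 to 36 in the rest of KO. The first 4 of these values are within a few reads of 0. With 0 in the other 5 KO libraries any count is flagged, so the rate of 1 in 20 does not apply to these 4.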

How the results depend on the processing

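The 1 change of direction was in Slfn8 between the guides, sgRNA1 KO minus sgRNA2 KO, at 0.76 with all libraries, -0.04 without sgRNA1 KO replicate 3 (range with 1 library left out -0.04 to 1.87) and -0.26 without both KO libraries nearest the controls. For the members, the log2 difference of KO from control ranged, with 1 library left out, from -6.35 to -5.95 for Ifi202b, -5.94 to -5.47 for Ifi203, -6.10 to -5.34 for Slfn8 and -2.81 to -2.20 for Slfn9. With a pseudocount of 5 it was -4.58 for Ifi202b, -3.78 for Ifi203 and -4.51 for Slfn8, and without both libraries nearest the controls that of Slfn9 was -3.22. A minimum mean of 50 left no value for Ifi202b and Ifi203. Calls over all genes ranged from 2777 to 7597 with 1 library left out, and calls between the guides from 0 to 182, with 30 when both KO libraries nearest the controls were left out, chosen after the data were seen. With 1 library left out, calls ranged from 4 to 10 in interferon signalling, 6 to 17 in interferon targets, 2 to 8 in nucleic acid sensing and 4 to 8 among neighbours, which had 3 at a mean of at least 50. With the filter no p200 or schlafen relative was tested. Without it, 3 p200 relatives and 1 schlafen relative were called, on rows that reached the lowest row sum through their controls. Same-numbered libraries did not pair (r from -0.345 to 0.332), and with the replicate block 5786 genes were called, with 7, 17 and 5 in the 3 interferon lists in the same order and 5 among neighbours. Kdr was no longer called with the block. The cause of these shifts was not tested. Counts under about 10 limit Mndal and the relatives.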
